A study of Homo sapiens with 12 samples.

Results

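SLC7A11, TXNIP and 7 related redox genes were followed in a human lung adenocarcinoma cell line exposed to erlotinib, quinacrine or both. The genes are SLC7A11, TXNIP, GCLM, GCLC, TXNRD1, SRXN1, NQO1, HMOX1 and ARRDC4, which is 9 of the 22395 named genes of the expression table. Each gene was read from its probe set, the table's row of pooled probes, with the highest mean over all arrays. The set was chosen by how some of its genes differed between the quinacrine-containing arms and the erlotinib arm. Those differences are therefore given as descriptions with no test. 7 of the 9 genes had a mean of at least 5 on the log2 scale and entered the tests, and these 7 were at 5 or above on every array. GCLC, with a mean of 3.65, and ARRDC4, with a mean of 4.31, were below that mean and are described only.

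All cells were NCI-H1975, a lung line with mutant EGFR (L858R and T790M per the labels). Erlotinib is an inhibitor of the EGFR kinase, and T790M is known as a resistance change to it. Quinacrine is an acridine compound long used against malaria. The combination arm received 1 µM erlotinib with 3 µM quinacrine for 6, 12, 24 and 48 h (4 arrays). The quinacrine arm received 3 µM for 6, 12 and 24 h (3 arrays), and the erlotinib arm received 1 µM for 6, 12, 24 and 48 h (4 arrays). The general protocol also names a 5 µM quinacrine dose, but each array's own label gives 3 µM. There was 1 untreated array with no time given and no vehicle named, and all arms share the 1 cell line. Each treatment and time had 1 array, so n below counts time points. The labels do not say whether the arrays came from separate cultures, and p-values therefore reflect the spread among these arrays alone, which may be technical.

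SLC7A11 is the transport subunit of the cystine/glutamate antiporter, which pairs with SLC3A2 at the plasma membrane and imports cystine. Cystine is reduced to cysteine, which limits the synthesis of glutathione. Glutamate-cysteine ligase, made of the catalytic subunit GCLC and the modifier subunit GCLM, carries out the first step of that synthesis. A parallel system rests on thioredoxin, which thioredoxin reductase (TXNRD1) keeps reduced and TXNIP binds and inhibits. Many of these genes, with NQO1 and HMOX1, are known targets of the transcription factor NRF2 at antioxidant response elements. TXNIP and its alpha-arrestin relative ARRDC4 limit glucose uptake and are known targets of MondoA (MLXIP) at paired carbohydrate response boxes.

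Promoter windows were searched for the motifs of these transcription factors, the antioxidant response element core and the paired boxes. A single E-box and the CCAAT box were also searched and are not assigned to these factors. Bases upstream of the annotated start were taken from RefSeq on GRCh38.p14, where 7 of the 9 genes had an entry, with 9 windows of 250 bases between them. SLC7A11 and HMOX1 had none. 4 windows are printed, 5′ to 3′ in the direction of the gene and ending at the base before the start, because they hold a motif match that the text describes. In TXNIP the capitals mark the paired boxes, searched as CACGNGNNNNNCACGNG, and in ARRDC4, whose window did not hold the paired pattern, a single E-box, CACGTG. In GCLM and TXNRD1, where the 120 bases next to the start are shown, they mark the antioxidant response element core, searched as TGACNNNGC and present on the opposite strand.
TXNIP, chr1:145996580-145996829, minus strand: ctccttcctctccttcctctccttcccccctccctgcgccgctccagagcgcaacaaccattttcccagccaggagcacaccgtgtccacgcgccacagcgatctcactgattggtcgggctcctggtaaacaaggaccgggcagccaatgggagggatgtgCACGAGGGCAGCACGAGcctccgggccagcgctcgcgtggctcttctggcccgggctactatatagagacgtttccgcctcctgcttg
ARRDC4, chr15:97960453-97960702, plus strand: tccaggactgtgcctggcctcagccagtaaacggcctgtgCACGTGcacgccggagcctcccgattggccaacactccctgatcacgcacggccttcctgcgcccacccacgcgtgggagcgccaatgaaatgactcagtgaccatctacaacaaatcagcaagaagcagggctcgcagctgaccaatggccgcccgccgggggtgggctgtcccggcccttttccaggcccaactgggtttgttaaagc
GCLM, chr1:93909431-93909550, minus strand: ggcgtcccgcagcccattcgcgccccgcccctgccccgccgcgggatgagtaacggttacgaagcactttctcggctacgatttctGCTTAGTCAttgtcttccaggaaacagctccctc
TXNRD1, chr12:104286912-104287031, plus strand: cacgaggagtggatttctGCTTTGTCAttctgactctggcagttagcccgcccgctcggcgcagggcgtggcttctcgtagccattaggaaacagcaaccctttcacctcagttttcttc

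The paired boxes of TXNIP, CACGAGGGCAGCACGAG, lay 88 to 72 bases before the start. Of 35116 RefSeq windows of the same length, 16 (0.05%) held the pattern on either strand. The E-box of ARRDC4 lay 210 to 205 bases before its start, and 6.34% of windows held one. The antioxidant response element core of GCLM lay 34 to 26 bases before the start, and that of the printed TXNRD1 window 102 to 94 bases before it. A second annotated TXNRD1 start had its own match, TGACTTCGC, 99 to 91 bases upstream. The core was present in 10.91% of all windows, and the windows of NQO1, SRXN1, GCLC, TXNIP and ARRDC4 had no match. CCAAT boxes, found in 32.01% of windows, numbered 3 in ARRDC4, 2 in the printed TXNIP window, 1 in each TXNRD1 window and 1 in GCLC. A match says that the letters occur there, and no binding was measured.

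**Figure D1:**
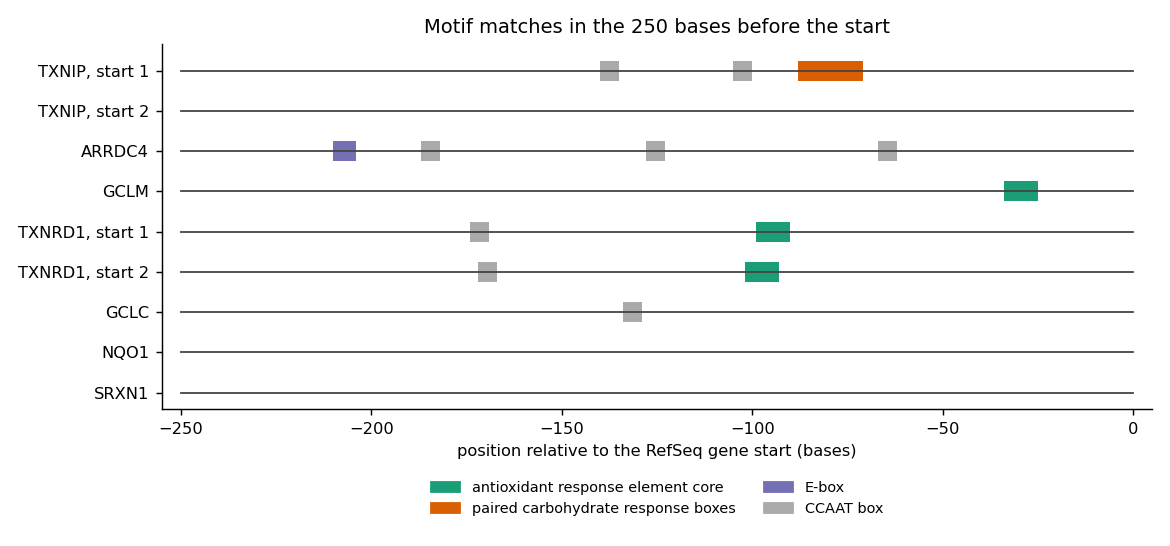
Positions of 4 motifs in the 250 bases before the annotated starts of the redox genes with a RefSeq window (x axis, position relative to the start in bases; 1 line per window; blocks coloured by motif). The paired carbohydrate response boxes appear only in the first TXNIP window, 88 to 72 bases before the start, and the antioxidant response element core appears in GCLM and both TXNRD1 windows.

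1 array stood apart before any comparison. On the combination array at 6 h the median of the 5820 tested genes was 0.21 log2 units below the untreated array, while the other treated arrays lay between -0.06 and 0.09. Its median correlation with the other arrays was 0.955, against 0.968 to 0.981 for the rest. Values that involve it are given with and without it where it matters. Of 8 epithelial markers 5 passed the mean of 5, among them CDH1 at 10.31 and EPCAM at 8.54, but KRT8 was at 2.81 and KRT18 at 4.71. Of 9 markers of blood, vessel, fibroblast and other cells only CD68 passed (8.57), and PTPRC, the leukocyte marker, was at 0.89.

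SLC7A11, the cystine importer, was lower in both quinacrine-containing arms, and the gap to the erlotinib arm was wider at 24 h than at 6 h. Its log2 level was 7.35, 6.69, 5.30 and 5.28 in the combination arm at 6, 12, 24 and 48 h. It was 7.47, 6.54 and 5.54 in the quinacrine arm at 6, 12 and 24 h. Under erlotinib it was 8.09, 7.66, 7.45 and 7.14 at 6, 12, 24 and 48 h, and the untreated array read 7.77. The 24 h and 48 h combination arrays and the 24 h quinacrine array were the lowest of the 12, while the 6 h arrays of both arms lay inside the erlotinib range, so the arms overlapped.

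At matched times SLC7A11 in the combination differed from erlotinib by -0.74, -0.97, -2.15 and -1.86 log2 units at 6, 12, 24 and 48 h. The mean was -1.43 ± 0.68 (SD, n = 4 times), a level 2.69-fold lower, and it was -1.66 without the 6 h array of the combination. Quinacrine alone differed from erlotinib by -0.62, -1.12 and -1.91 at 6, 12 and 24 h, with a mean of -1.22 ± 0.65 (SD, n = 3 times), 2.32-fold lower, and -0.87 without the 24 h array of quinacrine. Against the untreated array, SLC7A11 was lower on all 4 combination arrays, with a difference of -2.49 log2 units at 48 h, and on all 3 quinacrine arrays, with -2.23 at 24 h. Under erlotinib it was 0.32 above the untreated array at 6 h and differed from it by -0.63 at 48 h. The arrays read RNA from whole cultures, in which fewer cells expressing a gene and less RNA per cell cannot be told apart.

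TXNIP, the thioredoxin-binding arrestin, ran the other way. Its log2 level was 7.69, 8.24, 8.22 and 8.63 in the combination arm at 6, 12, 24 and 48 h. It was 7.74, 8.05 and 8.27 in the quinacrine arm at 6, 12 and 24 h. Under erlotinib it was 7.26, 6.97, 6.98 and 7.63, and untreated cells read 7.29. Every array with quinacrine was above every erlotinib array and above the untreated array, although the 48 h erlotinib array came close to the lowest of them.

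TXNIP in the combination exceeded erlotinib by 0.43, 1.27, 1.24 and 1.00 log2 units at 6, 12, 24 and 48 h. The mean was 0.99 ± 0.39 (SD, n = 4 times), 1.98-fold higher, and it was 1.17 without the 6 h array of the combination. Quinacrine alone exceeded erlotinib by 0.48, 1.08 and 1.29, with a mean of 0.95 ± 0.42 (SD, n = 3 times). The gap to erlotinib was smallest at 6 h in both arms. Under erlotinib alone TXNIP was below the untreated array at 6, 12 and 24 h and 0.34 above it at 48 h.

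ARRDC4, the arrestin closest to TXNIP among the genes followed, was read at a low level and was not tested. Its log2 level was 3.94, 4.98, 4.64 and 5.01 in the combination arm at 6, 12, 24 and 48 h. It was 4.62, 4.58 and 4.80 in the quinacrine arm at 6, 12 and 24 h, and 4.50, 3.73, 3.06 and 3.93 under erlotinib, with 3.97 in untreated cells. The combination differed from erlotinib by -0.56 at 6 h, whereas it was above erlotinib by 1.25, 1.58 and 1.08 at 12, 24 and 48 h. The mean difference was 0.84 ± 0.95 (SD, n = 4 times) and 1.30 without the 6 h array of the combination. The quinacrine arm lay above the erlotinib arm with no overlap, by 0.12, 0.85 and 1.74 at 6, 12 and 24 h. Its mean of 0.90 was 0.49 without the 24 h array of quinacrine.

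**Figure D2:**
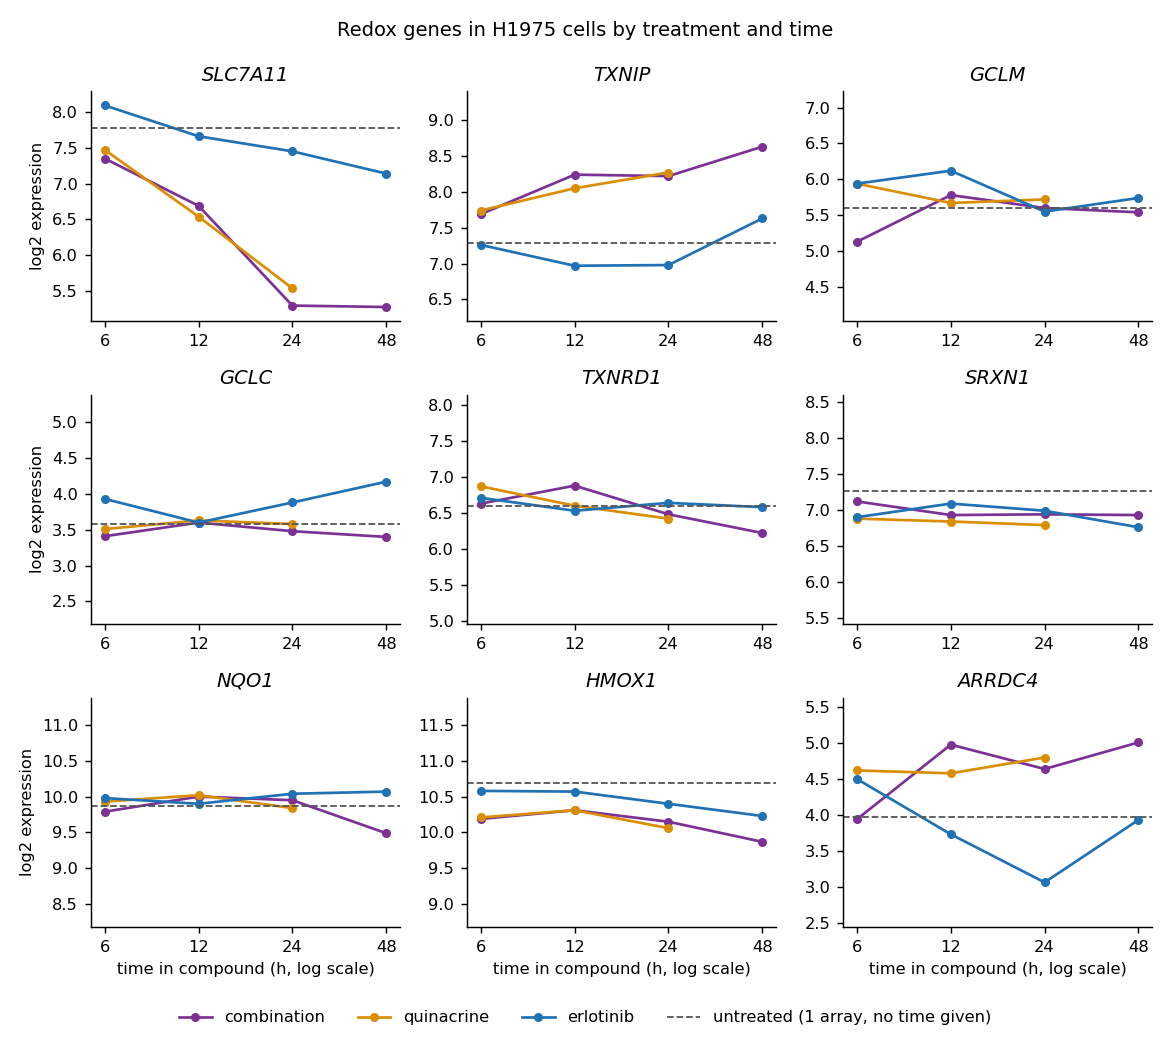
Log2 expression level (y axis) against hours of treatment (x axis, log scale) for each of the 9 redox genes, 1 point per array, lines joining an arm, and the untreated array as a dashed line. SLC7A11 was at 5.28 in the combination at 48 h against 7.14 under erlotinib, and TXNIP lay above the erlotinib arrays on every array with quinacrine.

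Neither subunit of glutamate-cysteine ligase separated the arms. GCLM was at 5.13, 5.78, 5.60 and 5.54 in the combination arm at 6, 12, 24 and 48 h and at 5.94, 5.67 and 5.72 in the quinacrine arm at 6, 12 and 24 h. Under erlotinib it was at 5.94, 6.12, 5.55 and 5.74, and at 5.60 in untreated cells. All arms overlapped, and the lowest value was on the combination array at 6 h. The mean difference of combination and erlotinib was -0.33 ± 0.36 (SD, n = 4 times), and -0.16 without that array.

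GCLC, read at a low level, was at 3.41, 3.60, 3.48 and 3.40 in the combination arm at 6, 12, 24 and 48 h. It was at 3.51, 3.63 and 3.58 in the quinacrine arm at 6, 12 and 24 h, at 3.93, 3.60, 3.88 and 4.17 under erlotinib, and at 3.58 in untreated cells. The erlotinib arrays were the higher ones except at 12 h. The mean difference was -0.42 ± 0.32 for the combination (SD, n = 4 times) and -0.23 for quinacrine alone (n = 3 times).

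HMOX1, which breaks down heme, had the difference from erlotinib with the narrowest spread. It was at 10.19, 10.31, 10.15 and 9.87 in the combination arm at 6, 12, 24 and 48 h, at 10.21, 10.31 and 10.06 in the quinacrine arm at 6, 12 and 24 h, and at 10.58, 10.57, 10.40 and 10.23 under erlotinib. The untreated array read 10.69 and was the highest of the 12. HMOX1 in the combination was below erlotinib at each of the 4 times, by a mean of -0.32 ± 0.07 log2 units (SD, n = 4 times), 1.24-fold lower. Quinacrine alone differed from erlotinib by -0.32 ± 0.06 (SD, n = 3 times). The arms overlapped through the 48 h erlotinib array, while at 6 to 24 h every array with quinacrine was below every erlotinib array.

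NQO1, a quinone reductase, lay between 9.49 and 10.00 in the combination arm, between 9.84 and 10.02 in the quinacrine arm and between 9.90 and 10.07 under erlotinib, with 9.87 in untreated cells. Its largest difference from erlotinib was -0.58, in the combination at 48 h, and the mean of -0.19 over 4 times was -0.06 without that time. TXNRD1, the thioredoxin reductase, lay between 6.22 and 6.88 in the combination arm, between 6.42 and 6.87 in the quinacrine arm and between 6.53 and 6.71 under erlotinib, with 6.60 in untreated cells. The combination differed from erlotinib by 0.35 at 12 h and by -0.36 at 48 h, so the sign varied with time.

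SRXN1, the sulfiredoxin that repairs over-oxidised peroxiredoxins, lay between 6.93 and 7.12 in the combination arm, between 6.79 and 6.88 in the quinacrine arm and between 6.76 and 7.09 under erlotinib. The untreated array, at 7.26, was above all 11 treated arrays. A further SRXN1 probe set had a mean of 1.98 and served only as an alternative.

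Over all times of each arm, TXNIP was the 1 gene whose combination and erlotinib values did not overlap. Among all 5820 tested genes the combination lay wholly above erlotinib in 4% and wholly below it in 7.94%, and the limma test called 3.64%. TXNIP and ARRDC4 were the 2 genes whose quinacrine values lay wholly above those of erlotinib, of which only TXNIP was among the tested genes. The quinacrine arm lay wholly above erlotinib in 9.33% of all tested genes and wholly below it in 10.1%, and the limma test called 1.13%. Nothing is read from these counts, since the comparisons chose the set.

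**Figure D3:**
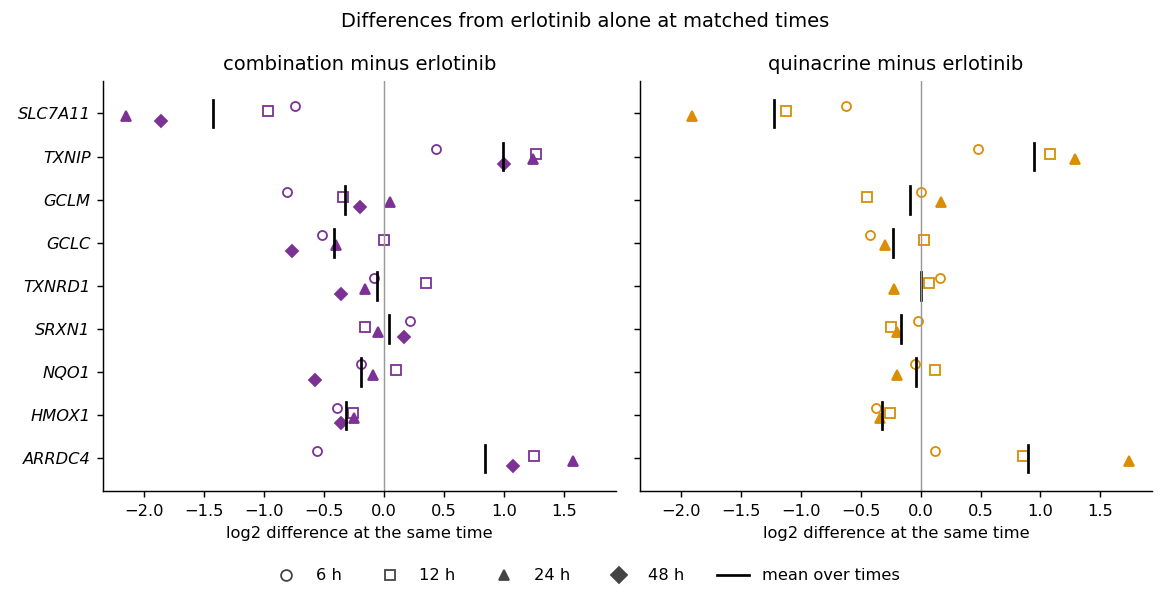
Log2 difference from erlotinib at the same time (x axis) for each of the 9 redox genes (y axis), for the combination (left) and quinacrine alone (right), with 1 symbol per time and a vertical bar for the mean over times. SLC7A11 has means of -1.43 and -1.22 and TXNIP of 0.99 and 0.95, while the HMOX1 symbols lie closest together.

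Whether erlotinib added to quinacrine alone was not used to choose the genes and was tested. With treatment and time as factors in limma, 0 of the 7 tested genes differed between the combination and quinacrine alone, and 0% of all 5820 genes were called (47 had an unadjusted p under 0.05). SLC7A11 differed by -0.14 log2 units (95% interval -0.73 to 0.45) and TXNIP by 0.03 (-0.35 to 0.42), both with a limma adjusted p of 1. The estimate was -0.25 (-0.67 to 0.17) for GCLM, which became -0.04 without the combination array at 6 h and -0.44 without the quinacrine array at 12 h. It was 0.18 (-0.07 to 0.43) for SRXN1, and between -0.08 and 0.02 for TXNRD1, NQO1 and HMOX1. A missed threshold does not show that the 2 arms were alike.

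SLC7A11 was the 1 redox gene whose slope with time passed the test. The test used the same arrays that served to choose the gene, so its p-value is no independent support for a change. Single arms had unlike slopes, given below. A slope shared by the 3 treated arms fell by 0.61 log2 units per doubling of time (SE 0.10, limma adjusted p = 0.0172). All-gene background for this slope was 134 of 5820 genes (2.3%, 118 rising and 16 falling). The adjusted p was 0.0625 without the combination array at 6 h, 0.0686 without the combination array at 48 h, 0.0621 without the quinacrine array at 24 h, 0.0571 with no filter on low levels and 0.0963 with time in hours. The slope itself stayed between -0.54 and -0.71 when single arrays were left out.

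The other 6 tested genes did not pass. TXNIP had a slope of 0.21 (SE 0.06, limma adjusted p = 0.0911). Of the alternative settings it passed only without the erlotinib array at 6 h (0.29, adjusted p = 0.00914). That setting raised the calls over all tested genes from 134 to 863 (815 rising), so the pass was not particular to TXNIP. The TXNIP slope was 0.16 without the combination array at 6 h (adjusted p = 0.293). It was 0.18 without the combination array at 48 h (adjusted p = 0.23). HMOX1 had a slope of -0.11 (SE 0.04, adjusted p = 0.126), which passed when arrays were centred on the tested genes (-0.18, adjusted p = 0.0361). TXNRD1 had a slope of -0.12 (adjusted p = 0.182), and GCLM, SRXN1 and NQO1 lay between -0.05 and -0.02.

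Within single arms, SLC7A11 had slopes of -0.76 in the combination, -0.97 under quinacrine and -0.31 under erlotinib. Those of TXNIP were 0.28, 0.26 and 0.11 in the same order of arms. The difference of slopes between the quinacrine-containing arms and the erlotinib arm was -0.51 for SLC7A11 and 0.16 for TXNIP, and it lay between -0.15 and 0.16 for the other 5 genes above the filter. It sets the same arms against each other as the choice of the genes did, so for them it is a description with no test.

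**Figure D4:**
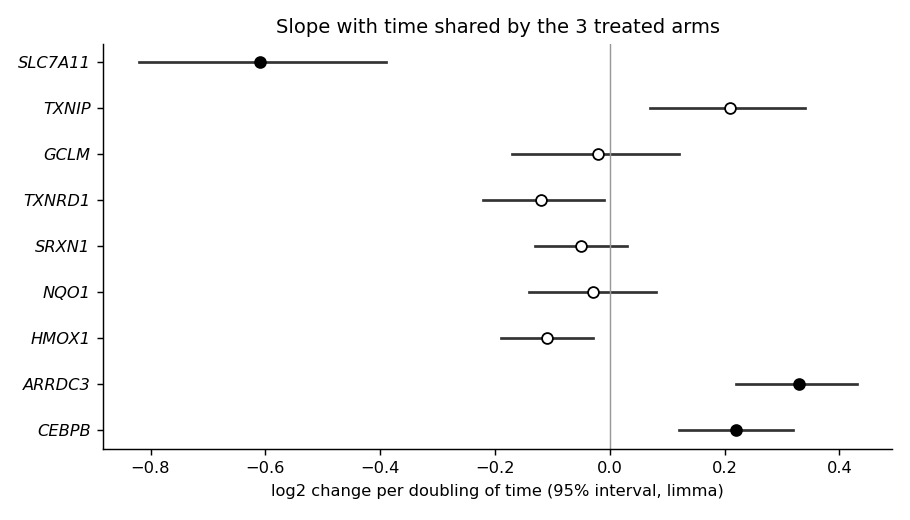
Change in log2 level per doubling of time (x axis), as the slope shared by the 3 treated arms, for the 7 tested redox genes and for ARRDC3 and CEBPB of the pathway lists (y axis); bars are 95% intervals, and filled points passed the limma test. SLC7A11, at -0.61, is the filled point below 0, and TXNIP, at 0.21, is open.

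Other genes of the same pathways were read from 6 lists. Of the 110 listed genes, 97 had a named probe set and 56 entered the tests. In the combination against erlotinib 0 rose, 1 fell and 55 did not pass, beside the 3.64% of all genes called, and the median over the lists was -0.04 against -0.03 over all genes. The count depended on the setting: 3 rose and 3 fell with cyclic loess or with array weights, 2 rose and 3 fell with a prior trend, and 3 rose and 2 fell with arrays centred on the tested genes. It was 3 and 1 without the erlotinib array at 6 h, 2 and 1 without the combination array at 6 h, and 0 and 0 without any 1 of the other 9 arrays or with median centring. Over all genes 485 were called with cyclic loess, 380 with array weights, 311 with a prior trend and 439 with arrays centred on the tested genes. Without the 6 h array of erlotinib 322 of all genes were called, and without that of the combination 294. Under the main settings the gene called lower was SLC7A5, a light chain that pairs with SLC3A2 to import large neutral amino acids. SLC7A5 in the combination differed from erlotinib by -0.56 log2 units (SE 0.11, limma adjusted p = 0.0337). Its levels were 11.24, 11.07, 10.99 and 10.91 in the combination arm and 11.73, 11.60, 11.71 and 11.40 under erlotinib at 6, 12, 24 and 48 h. The untreated array, at 11.31, lay between these arms, below every erlotinib array and above every combination array. SLC7A5 thus lay wholly below erlotinib in the combination, as did 7.94% of all tested genes. The adjusted p was above 0.05 without any 1 of 9 arrays (all but the 6 h arrays of erlotinib and the combination), reaching 0.146 without the combination array at 24 h. It was also 0.114 with no filter, 0.0873 with median centring and 0.0530 with no time term. SLC7A5 under quinacrine alone differed from erlotinib by -0.57 (adjusted p = 0.0620, and 0.0373 without the combination array at 6 h).

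None of the 15 tested genes of the cystine and glutathione list passed in the combination against erlotinib. The smallest p was that of ABCC3, an export pump for conjugates, which differed by 0.70 (limma adjusted p = 0.0622) and by 0.83 under quinacrine alone (adjusted p = 0.0721). Without the combination array at 6 h both passed, at 0.85 (adjusted p = 0.0219) and 0.80 (adjusted p = 0.0296). SLC3A2, the partner of SLC7A11, differed by 0.13 (adjusted p = 0.612). In the thioredoxin and peroxiredoxin list 0 of 12 passed. There SESN2, a stress-induced sestrin, differed by 0.63 (adjusted p = 0.0978) and TXN, thioredoxin itself, by 0.04 (adjusted p = 0.855).

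In the list of NRF2 regulators 0 of 5 passed. NFE2L2, which encodes NRF2, differed by -0.28 (limma adjusted p = 0.332), and by -0.14 without the combination array at 6 h. KEAP1, the inhibitor of NRF2, differed by 0.00 (adjusted p = 0.993), and SQSTM1, an autophagy adaptor that binds KEAP1, by 0.27 (adjusted p = 0.260). Among 10 other NRF2 targets 0 passed, with FECH, the last enzyme of heme synthesis, at -0.41 (adjusted p = 0.216). In the arrestin and MondoA list 0 of 8 passed. MLXIP, which encodes MondoA, differed by -0.56 (adjusted p = 0.0635), or by -0.42 without the combination array at 6 h (adjusted p = 0.0637). The activity of MondoA was not measured. In the list of ATF4 and cystine starvation genes SLC7A5 was the 1 of 6 that passed.

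Under quinacrine alone against erlotinib 0 of the 56 pathway genes passed by limma, where 1.13% of all genes were called. The count was 6 higher and 5 lower with array weights, 1 and 4 with cyclic loess, 1 and 1 with a prior trend or without the erlotinib array at 6 h, and 1 and 2 with arrays centred on the tested genes. Over all genes the calls were 682, 334, 178, 257 and 293 in the same order of settings. Without the combination array at 6 h the pathway count was 1 (ABCC3) and 3 (ATF4, MLXIP and SLC7A5), with 288 calls over all genes. Without any 1 of the other arrays the pathway count stayed at 0. Here MLXIP differed by -0.52 (adjusted p = 0.127, and 0.0317 without the combination array at 6 h), NFE2L2 by -0.21 (adjusted p = 0.574), SESN2 by 0.48 (adjusted p = 0.258), FECH by -0.65 (adjusted p = 0.126) and NFE2L1, an NRF2 relative, by 0.24 (adjusted p = 0.357). Between the combination and quinacrine alone 0 of 56 passed, all with a limma adjusted p of 1. The gene with the smallest p in each of the 6 lists was GPX8 (-0.51), PRDX6 (-0.15), KEAP1 (0.14), FECH (0.24), PFKFB3 (-0.41) and PPP1R15A (0.34). Without the combination array at 6 h GPX8 was at -0.04, PRDX6 at 0.02 and PFKFB3 at -0.09.

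With time, 2 of the 56 pathway genes rose and 0 fell, beside the 2.3% of all genes called, and the median slope was 0.06 against 0.05 over all genes. The count was 14 rising without the erlotinib array at 6 h, where 863 of all 5820 genes were called (815 rising). It was 0 without the quinacrine array at 24 h or the combination array at 48 h, where 14 and 17 of all genes were called. With a prior trend it was 6 rising and 1 falling, where 216 of all genes were called. The 8 arrestin and MondoA genes had a median of 0.21. Without the combination array at 6 h their slopes were 0.11 for MLX, 0.08 for MLXIP, 0.13 for ARRDC2 and 0.33 for ARRDC3. The rest were 0.39 for ARRB1, 0.01 for SLC2A1, 0.25 for HK2 and 0.15 for PFKFB3. Over all genes 26 were called without that array (18 rising and 8 falling). ARRDC3, an alpha-arrestin of the TXNIP family, rose by 0.33 log2 units per doubling of time (SE 0.05, limma adjusted p = 0.0113). That call was lost without the quinacrine array at 24 h (adjusted p = 0.0530) or the combination array at 48 h (adjusted p = 0.0659). CEBPB, a stress-responsive transcription factor, rose by 0.22 (SE 0.04, limma adjusted p = 0.0324), and its adjusted p reached 0.124 without the combination array at 6 h. CEBPB also lost its call without any of the 3 quinacrine arrays, the erlotinib array at 24 h or the combination arrays at 24 and 48 h, and under 4 other settings (adjusted p 0.0555 to 0.106). In the lists where no slope passed, the smallest p was that of GSS (0.15, adjusted p = 0.0911), MSRB1 (0.18, adjusted p = 0.152), SQSTM1 (0.17, adjusted p = 0.0840) and BLVRB (0.28, adjusted p = 0.0620). Without the combination array at 6 h these slopes were 0.10, 0.11, 0.14 and 0.18 in the same order, with limma adjusted p of 0.298, 0.491, 0.258 and 0.154. In the difference of slopes 0 of 56 passed, as did 0% of all 5820 genes by limma (929 had an unadjusted p under 0.05), and the smallest p of each list was that of GGCT (0.24), MSRB2 (0.26), CUL3 (-0.23), IDH1 (-0.23), PFKFB3 (0.49) and CEBPB (0.21), with adjusted p from 0.116 to 0.311.

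**Figure D5:**
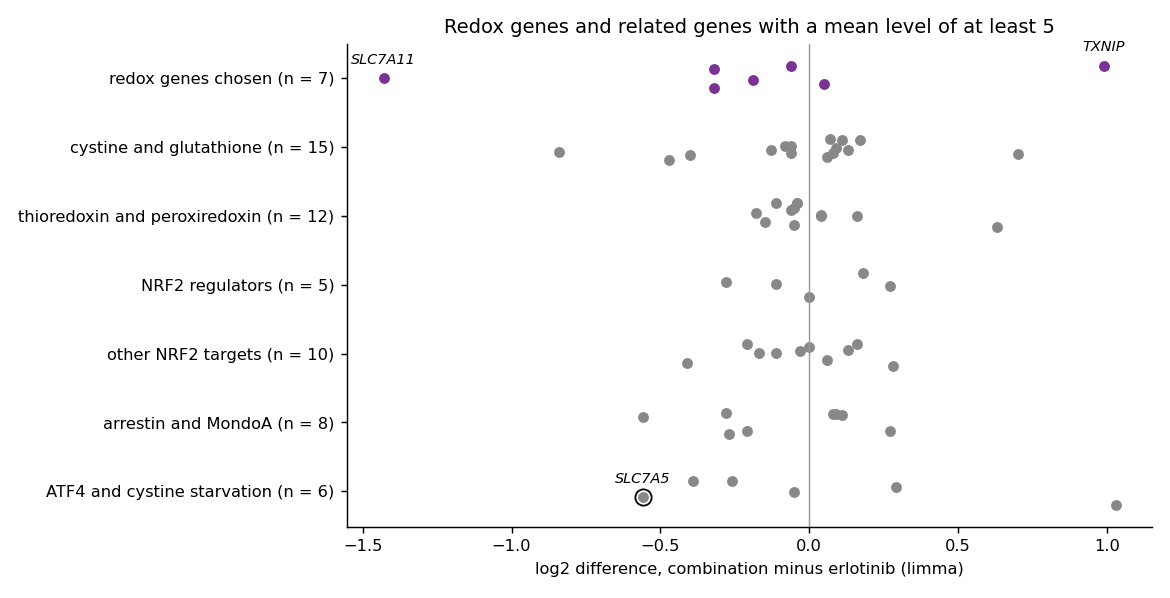
Log2 difference of the combination minus erlotinib (x axis) for each tested gene of the redox set and of the 6 pathway lists (y axis, number of tested genes in brackets), 1 point per gene, with a ring around the list gene that passed the limma test. The 56 list genes spread around a median of -0.04, and the ringed gene is SLC7A5 at -0.56. The redox set was chosen by such differences, so its points, SLC7A11 and TXNIP among them, are descriptions with no test.

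SLC7A11 and TXNIP varied in opposite directions over the 12 arrays (Pearson r = -0.87). HMOX1 had r = 0.81 with SLC7A11 and r = -0.82 with TXNIP, and ARRDC4 had r = 0.85 with TXNIP. GCLM had r = 0.26 with SLC7A11 and TXNRD1 had r = 0.63. These are descriptions over 12 arrays that share treatments, times and a joint normalization. The set was chosen by differences between the arms of these arrays, so such values follow in part from the choice.

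The tested genes most like SLC7A11 over the 12 arrays were SRI (r = 0.952), EDF1 (0.950), BOP1 (0.948), NT5DC2 (0.938) and HDDC2 (0.937). EDF1, a transcriptional coactivator, averaged 8.36 in the combination arm, 8.53 in the quinacrine arm and 9.54 in the erlotinib arm, with 9.56 in untreated cells. BOP1, a ribosome biogenesis factor, averaged 7.02, 6.93 and 7.92 in those arms, with 7.94 in untreated cells. The genes most like TXNIP were COQ10B (r = 0.966), IL27RA (0.958), INA (0.949), LSR (0.947) and STAT3 (0.946). IL27RA, a cytokine receptor chain, averaged 6.72, 6.66 and 5.92 in the combination, quinacrine and erlotinib arms, with 5.93 in untreated cells. STAT3, a transcription factor downstream of cytokine receptors, averaged 9.38, 9.39 and 9.01, with 9.02 in untreated cells.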

How the data were processed

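Expression was measured on 12 Affymetrix Human Gene 2.1 ST arrays. The deposited values are log2 levels; per the labels, the authors ran RMA in Affymetrix Expression Console 1.30 (background correction, quantile normalization, summary per probe set) and hg19 probe set annotation. The table was used as deposited, and all 12 columns matched a sample. The platform annotation gave a single symbol for 23871 of 53617 probe sets; 1842 with several symbols and 27904 without any were not named. Named probe sets gave 22395 genes, each read from its probe set with the highest mean. Genes with a mean of at least 5 were tested, 5820 in all (26.0%). The mean takes in treated arrays, so a gene can pass through the arrays where it is high.

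Tests used limma 3.58.1 in R 4.3.3 on the 11 treated arrays, with p-values adjusted by Benjamini-Hochberg across all 5820 genes and called at 0.05. Arms were compared with treatment and time as factors, slopes with treatment and log2 hours, and slope differences with log2 hours by presence of quinacrine. The spread is the departure of single arrays from these models, not replicate error. Differences of the 9 redox genes from erlotinib are means of matched times. The redox genes, the 6 pathway lists and the tests were chosen with earlier results of these data known. Of the lists, genes past the threshold are named, or the gene with the smallest p, with NFE2L2, KEAP1, TXN and MLXIP always named and SLC3A2 added after its values were seen; the 5 genes with the highest r to SLC7A11 and to TXNIP are named. The procedure was tested on simulated data. Alternatives were other filters, median centring, cyclic loess, array weights, a prior trend, no time term, time in hours, other probe sets, and leaving out each array. Centring each array on the tested genes was added after seeing the data. Arrays carry no read depth, and their number limits the precision. Promoter sequences are from the RefSeq table for GRCh38.p14. The untreated array entered no test.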

Additional observations from a re-analysis of the deposited data

Results flagged for a closer look

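SRXN1 on the combination array at 6 h, at 7.12, stood away from the other combination arrays, which lay between 6.93 and 6.94. The gap took a share of 0.947 of the arm's range, above the limit for 4 values. The 4 values are different times of 1 arm rather than replicates, and the range is 0.19 log2 units. 18 groups of 4 arrays were examined with 1 such value, and chance gives about 1 in 20. The same array stood apart over all genes, and the part of that in the SRXN1 value was not tested.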

How the results depend on the processing

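Rescaling the arrays gave -1.44 to -1.40 for SLC7A11 and 0.98 to 1.02 for TXNIP as mean differences of combination and erlotinib. Without single times they ran from -1.66 to -1.19 and from 0.89 to 1.17, and under quinacrine from -1.52 to -0.87 and from 0.78 to 1.19. SRXN1 under quinacrine was at 0.49 with its other probe set. Counts over all genes moved more. Combination against erlotinib (212; 83 higher, 129 lower) gave 51 with no filter, 44 with median centring, 485 with cyclic loess, 380 with array weights (202 higher, 178 lower), 439 with centring on the tested genes (223 and 216), and 6 to 322 without single arrays. Quinacrine against erlotinib (66; 30 and 36) gave 28, 19 (11 and 8), 334, 682 and 293 under the same 5, 178 with a prior trend, 106 with no time term, and 0 to 288. The slope (134; 118 rising, 16 falling) gave 28 with no filter, 216 with a prior trend, 50 in hours, 231 with centring on the tested genes (126 and 105), 139 and 60 with cyclic loess, and 14 to 863. Slope differences (0) gave 10 with cyclic loess, 36 with a prior trend, 12 with centring on the tested genes, and 0 to 50. Combination against quinacrine stayed at 0 throughout. The estimate of array weights did not converge fully in 4 fits, so those values are uncertain. The cause of these shifts was not tested.

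Signs turned only for estimates that did not pass. Combination against quinacrine, TXNIP was -0.02 and HMOX1 -0.04 with median centring, HMOX1 -0.06 with no time term, and TXNRD1 0.03 with cyclic loess, 0.10 with array weights and 0.02 with centring on the tested genes. Slopes of GCLM and NQO1 were 0.02 with median centring. The slope difference of SRXN1 was 0.04 with median centring, 0.03 with array weights and 0.002 in hours, and that of HMOX1 -0.00051 in hours and -0.07 with centring on the tested genes. Without single arrays, combination against quinacrine ran from -0.29 to 0.02 for SLC7A11, -0.06 to 0.16 for TXNIP, -0.16 to 0.09 for TXNRD1 and -0.01 to 0.04 for HMOX1. The NQO1 slope ran from -0.06 to 0.03, and slope differences from -0.05 to 0.42 for TXNIP, -0.10 to 0.11 for SRXN1 and -0.03 to 0.07 for HMOX1.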

Other observations

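CHAC1, which degrades glutathione and is known to be induced when cystine is short, had a mean of 3.59, below the level for testing, and was picked after its values were seen. It was at 3.18, 3.07, 3.25 and 3.19 in the combination arm at 6, 12, 24 and 48 h. It was at 3.53, 2.87 and 3.26 in the quinacrine arm at 6, 12 and 24 h, at 4.44, 3.91, 4.22 and 4.0 under erlotinib, and at 4.12 in untreated cells. The arrays with quinacrine were all below the others. Among all tested genes, which do not include CHAC1, the combination lay wholly below erlotinib in 7.94% and quinacrine alone in 10.1%.

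PPP1R15A, a stress-induced regulator of the eIF2alpha phosphatase, was likewise picked after its values were seen. It was at 6.51, 6.73, 6.90 and 7.68 in the combination arm at 6, 12, 24 and 48 h and at 6.15, 5.67, 6.11 and 5.77 under erlotinib, with 6.22 in untreated cells. The difference was 1.03 log2 units, with a limma adjusted p of 0.0554, or 0.0414 without the combination array at 6 h. The combination lay wholly above erlotinib, as it did for 4% of all tested genes. Under quinacrine alone PPP1R15A was at 6.18, 6.85 and 6.54 at 6, 12 and 24 h. It differed from erlotinib by 0.69 (limma adjusted p = 0.230, and 0.166 without the combination array at 6 h). ATF4, the factor upstream of both genes in amino acid shortage, differed by -0.39 in the combination against erlotinib (limma adjusted p = 0.148). Without the combination array at 6 h that was -0.24 (adjusted p = 0.198). Under quinacrine alone ATF4 differed from erlotinib by -0.48 (adjusted p = 0.142), or by -0.50 without that array (adjusted p = 0.0345).

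GSR, glutathione reductase, was chosen in the same way. It was at 7.37, 7.52, 7.63 and 7.78 in the combination arm at 6, 12, 24 and 48 h and at 7.84, 7.65, 8.20 and 8.50 under erlotinib. It was at 7.57, 7.41 and 7.60 in the quinacrine arm at 6, 12 and 24 h and at 7.63 in untreated cells. Every erlotinib array was above the untreated array, while the combination arrays lay on both sides of it. The difference of -0.47 between the combination and erlotinib had a limma adjusted p of 0.0678.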
